A study of Mus musculus with 6 samples.

Results

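The 41 genes described here encode the secreted Wnt ligands (19 genes) and the fibroblast growth factor family (22 genes). They were chosen by symbol alone, as every gene with a single annotated symbol made of Wnt plus a number and an optional letter, or of Fgf plus a number, out of 19938 such genes. Each gene is represented by its probe set of highest mean signal over all arrays. Signals are the deposited values on a log2 scale, so that a difference of 1 is a 2-fold difference. The study compared aortas of Trail knockout mice (3 arrays) with those of Wildtype C57Bl6/J mice (3 arrays), and the knockout is labelled with the same strain. All mice were 6 weeks old, and the knockout animals came from Amgen. Trail is the death ligand encoded by Tnfsf10, and the comparison asks what its loss changes in aortic tissue. The labels state no sex and do not say whether an array held 1 aorta or a pool, so the spread behind each p-value is that between samples and may be technical.

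Wnt proteins are lipid-modified signals that need Porcn and Wls to leave the cell and that bind Frizzled receptors together with Lrp5, Lrp6, Ror2 or Ryk on nearby cells. One branch stabilises beta-catenin and raises genes such as Axin2, and other branches act on cell shape and polarity. Most Fgf proteins are held close to their source by heparan sulfate and activate the receptor tyrosine kinases Fgfr1 to Fgfr4, whereas the hormones of the Fgf15 subfamily circulate and need a klotho co-receptor, and the members of the Fgf11 subfamily stay inside the cell. In the vessel wall Fgf1 and Fgf2 are known as mitogens of smooth muscle and endothelial cells, and in covering epithelia Fgf7 from the underlying connective tissue acts on epithelial Fgfr2.

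The arrays were not alike in tissue content, which bears on every result below. Smooth muscle markers were present on all arrays, with a list median of 9.57 to 10.78 over 9 genes and Acta2 at 12.27 to 12.63. On Wildtype 1, 1 of these 9 genes was over 2-fold above every other array and 1 over 2-fold below. Whether the smooth muscle signal came from aorta alone was not tested. All 12 markers of skeletal muscle and all 12 of stratified squamous epithelium were over 2-fold lower on the array labelled Wildtype 1 than on every other array. The squamous list, summed on the linear scale, had a log2 value of 9.02 there, 14.98 to 15.13 on the other Wildtype arrays and 14.96 to 15.10 on the Trail knockout arrays. The skeletal muscle list gave 9.76 there, 15.39 to 15.61 on the other Wildtype arrays and 15.13 to 15.57 on the knockout arrays. Brown fat markers (6 of 7) and white fat markers (7 of 7) were over 2-fold higher on Wildtype 1 than on every other array, with summed values of 14.20 and 14.18 there and at most 11.56 and 11.88 elsewhere. Stomach markers had a list median of 12.27 on Trail knockout 2 and at most 6.71 elsewhere, and the exocrine pancreas list summed to 14.21 there and at most 9.18 elsewhere. The lung epithelium list summed to 13.12 on Trail knockout 1, 11.17 to 11.88 on Trail knockout 2 and 3 and Wildtype 2 and 3, and 8.70 on Wildtype 1, where 3 of its 8 genes were over 2-fold below every other array. The surfactant gene Sftpc of that list had 11.88 on Trail knockout 1 and at most 4.87 elsewhere, while Cyp2f2 had 7.37 on Wildtype 1 and at least 10.70 elsewhere. Endothelial markers (4 of 9 over 2-fold above) summed to 12.30 on Wildtype 1 and 10.65 to 11.32 elsewhere. Tnfsf10 itself gave 8.42 on Wildtype 1, 4.90 and 4.85 on the other Wildtype arrays and 5.02, 4.48 and 4.09 on the knockout arrays, so it did not separate the groups. Directions between genotypes follow the labels.

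**Figure D1:**
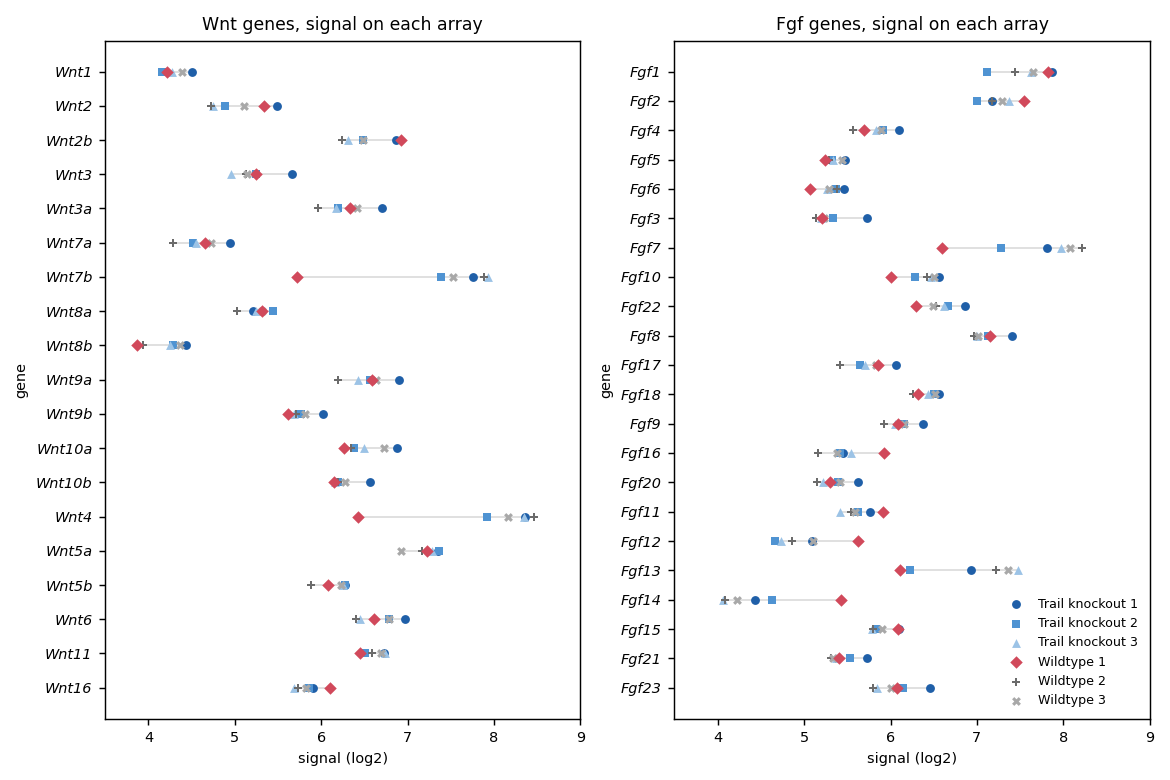
Signal (log2, horizontal axis) of the 19 Wnt genes and 22 Fgf genes on each of the 6 arrays, with genes ordered by subfamily and a grey line from the lowest to the highest array. Wildtype 1 (red diamonds) lies far to the left for Wnt4, Wnt7b and Fgf7 and to the right for Fgf14, and most other genes span less than 1 log2 unit.

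Most ligand genes varied less than 2-fold between arrays, as did most genes on the array. The range over the 6 arrays was under 1 log2 unit for 36 of 41 (87.8%, against 80.8% of all genes), and it was under 1 for 40 of 41 on the 5 arrays other than Wildtype 1 (97.6%, against 95.8%). The median range was 0.57 for Wnt genes and 0.55 for Fgf genes, against 0.51 for all genes. On the 5 arrays other than Wildtype 1 it was 0.45 for the 41 genes, against 0.37 for all genes. Wnt4, Wnt7b, Fgf7, Fgf13 and Fgf14 were the 5 genes with a range of 1 log2 unit or more over the 6 arrays. Fgf13 here, and Wnt2b, Fgf10, Fgf16 and Fgf21 below, were picked out after their values were seen.

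Wnt4 and Wnt7b were the ligands furthest apart on Wildtype 1. Wnt4, a Wnt with roles in kidney, gonad and muscle development, had signals of 8.36, 7.92 and 8.35 on Trail knockout 1 to 3, and of 6.42, 8.46 and 8.16 on Wildtype 1 to 3. Wildtype 1 was thus 2.84-fold below the lowest of the other arrays, and those 5 lay within 0.54 of each other. A second Wnt4 probe set showed the same pattern, with 8.0, 7.74 and 8.12 on the knockout arrays and 5.92, 8.23 and 7.82 on the Wildtype arrays. Wnt7b, an epithelial Wnt best known from lung and skin, had signals of 7.76, 7.39 and 7.93 on the knockout arrays and of 5.72, 7.88 and 7.53 on the Wildtype arrays. Its value on Wildtype 1 was 3.19-fold below the lowest other array. Fgf7, the keratinocyte growth factor of connective tissue, gave 7.81, 7.28 and 7.97 on the knockout arrays and 6.59, 8.21 and 8.08 on the Wildtype arrays. It was again lowest on Wildtype 1, by 1.60-fold below Trail knockout 2, the next lowest array. These 3 genes were low on the array where squamous epithelium and skeletal muscle markers were low and fat markers high, and the part of tissue content in their values was not tested. In bulk tissue, fewer cells of a type and less RNA per cell cannot be told apart.

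**Figure D2:**
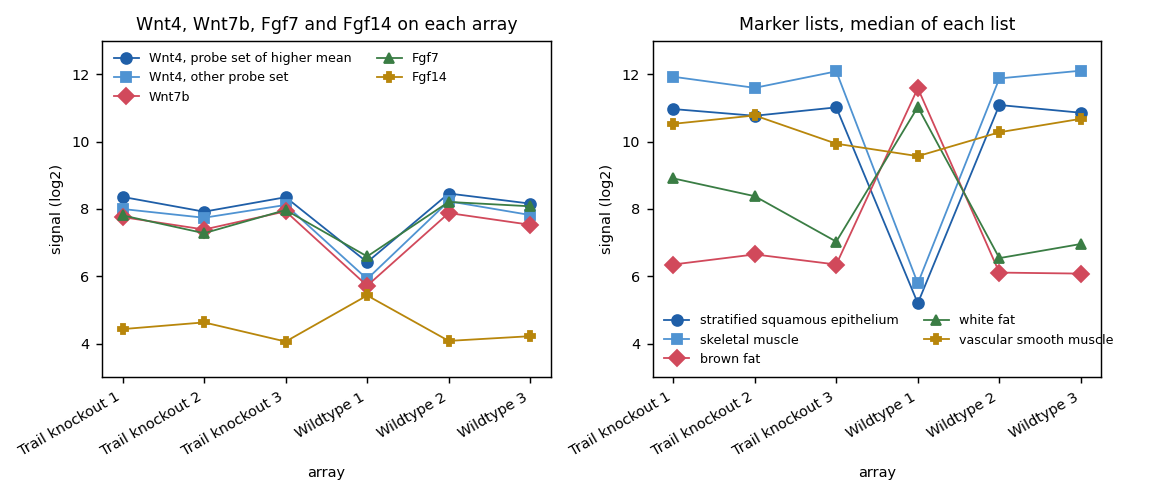
Left, signal (log2) of both Wnt4 probe sets, Wnt7b, Fgf7 and Fgf14 on each array, and right, the median signal (log2) of 5 marker lists on the same arrays, with lines joining the values of one gene or list. Wnt4, Wnt7b and Fgf7 dip and Fgf14 rises on Wildtype 1, where the squamous and skeletal muscle lists fall to 5.20 and 5.79 and the brown and white fat lists rise to 11.59 and 11.03.

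The sequences just upstream of Wnt4 and Fgf7 are shown because these genes dipped together on Wildtype 1 and differ in the make-up of their promoters. They are the 250 bases before the annotated start on the plus strand, from RefSeq on GRCm38.p6, at chr4:137277385-137277634 for Wnt4 and chr2:126034408-126034657 for Fgf7. A promoter window was found for 31 of the 41 genes, and Wnt7b has none here. Capitals mark the core of the TCF/LEF motif (CTTTG), the TATA box (TATAAA) and the GC box (CCGCCC), searched on both strands, with overlapping matches merged.
Wnt4: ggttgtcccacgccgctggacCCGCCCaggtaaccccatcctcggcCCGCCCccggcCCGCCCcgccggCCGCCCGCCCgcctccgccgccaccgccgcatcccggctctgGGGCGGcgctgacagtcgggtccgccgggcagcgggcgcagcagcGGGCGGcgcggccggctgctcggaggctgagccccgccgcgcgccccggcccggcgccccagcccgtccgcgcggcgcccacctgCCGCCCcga
Fgf7: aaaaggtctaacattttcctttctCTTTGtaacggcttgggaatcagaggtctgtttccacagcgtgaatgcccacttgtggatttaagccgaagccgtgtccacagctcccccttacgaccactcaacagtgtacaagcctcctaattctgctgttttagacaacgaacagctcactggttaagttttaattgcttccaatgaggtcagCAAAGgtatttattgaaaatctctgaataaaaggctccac
The Wnt4 window is 85.2% G or C, above 99.9% of the 32851 windows of this length, and holds 8 GC box matches and none of the other motifs. The Fgf7 window is 43.6% G or C, against a median of 52.4%, and holds 2 TCF/LEF core matches and none of the others. Over all windows, 48.6% hold the TCF/LEF core, 32.7% the GC box and 12.4% the TATA box on at least 1 strand. A match describes the letters only, and the arrays do not measure binding.

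Over the whole family, Wildtype 1 did not stand apart more often than over other genes. It was over 2-fold below every other array for 2 of 41 genes (Wnt4 and Wnt7b, 4.88%), against 4.74% of all genes, and over 2-fold above for 0 of 41, against 4.73%. By any margin it was the lowest array for 13 genes (31.7%, against 24.6%) and the highest for 7 (17.1%, against 33.4%). No ligand gene was over 2-fold apart from all others on any other array, Trail knockout 2 included, where 1.26% of all genes were over 2-fold above and 0.00502% below. This comparison sets 1 array against 5 and has no test.

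Among the other Wnt genes, no value on Wildtype 1 left the range of the other arrays by as much as 0.2 log2 units except that of Wnt16. Wnt16, a Wnt of bone and skin, had 6.10 on Wildtype 1, and its other values were 5.90, 5.86 and 5.69 on the knockout arrays and 5.73 and 5.82 on the Wildtype arrays. Wnt5a, which mostly acts without beta-catenin through Ror2, had 7.23 on Wildtype 1, inside the range of 6.92 to 7.36 of the others. Wnt2b was highest there at 6.92, level with Trail knockout 1 at 6.87. Over the 13 Wnt genes tied to beta-catenin signalling, Wnt7b included, Wildtype 1 was lowest for 5 (38.5%, against 24.6% of all genes). It was highest for 1 (7.69%, against 33.4%). The median difference between Wildtype 1 and the mean of the other arrays was 0.02 over these 13 genes and -0.08 over the 6 other Wnt genes.

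In the Fgf family, the genes furthest on Wildtype 1 from the mean of the other arrays were Fgf7 (-1.27) and, of the intracellular members, Fgf14 (1.15), Fgf13 (-0.93) and Fgf12 (0.73). Fgf12, Fgf13, Fgf14 and the fourth intracellular member, Fgf11, regulate voltage-gated sodium channels and have no role as extracellular ligands in the classic sense. Fgf14 had 5.43 on Wildtype 1, against 4.43, 4.63 and 4.06 on the knockout arrays and 4.08 and 4.22 on the other Wildtype arrays, 1.74-fold above the highest of them. Fgf12 gave 5.62 there, against 5.09, 4.66 and 4.73 on the knockout arrays and 4.86 and 5.10 on the Wildtype arrays. Fgf11 gave 5.91 there, against 5.76, 5.62 and 5.42 and then 5.54 and 5.59. Those 3 genes were highest on Wildtype 1 and did not pass the filter on low signal used for testing. Fgf13 went the other way, with 6.11 on Wildtype 1 and 6.22 on Trail knockout 2, against 6.93 and 7.48 on the remaining knockout arrays and 7.22 and 7.36 on the remaining Wildtype arrays. The nerve and Schwann cell list had a median of 7.08 on Wildtype 1 and of 6.64 to 7.06 elsewhere, and the cardiac muscle list 9.59 against 5.97 to 7.06. Their part in these values was not tested.

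Apart from Fgf7, the secreted Fgf genes each spanned less than 1 log2 unit over the 6 arrays. Fgf1, which lacks a classic signal peptide, had signals of 7.87, 7.12 and 7.63 on the knockout arrays and 7.82, 7.44 and 7.65 on the Wildtype arrays, lowest on Trail knockout 2. Fgf2, its nearest relative, had 7.18, 7.0 and 7.37 on the knockout arrays and 7.54, 7.17 and 7.29 on the Wildtype arrays, again lowest on Trail knockout 2. Fgf10, which like Fgf7 signals from mesenchyme to epithelium, was lowest on Wildtype 1 at 6.00, against 6.28 to 6.56 elsewhere. Fgf16 was highest there at 5.92, against 5.16 to 5.54. The hormone gene Fgf21 gave 5.40 on Wildtype 1, inside the range of 5.31 to 5.73 of the other arrays. For Fgf15 and Fgf23, the other hormones, Wildtype 1 also lay inside that range.

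The comparison of genotypes found no ligand gene past the threshold. Of the 41 genes, 22 passed the filter that removed the lowest 40% of probe sets by mean signal (11 Wnt, 11 Fgf), and 0 of those 22 had an adjusted p under 0.05 in limma, a moderated linear model fitted across all probe sets (0% of 14046 tested). None of the 22 had an unadjusted p under 0.05, against 0.634% of all probe sets tested, and their limma adjusted p lay between 0.921 and 0.994. Without Wildtype 1, 0 of 22 passed again, as did 0% of all probe sets. There 1 of 22, Wnt5a, had an unadjusted p under 0.05 in limma, against 1.54% of all, and its limma adjusted p was 0.997. The means of Trail knockout and Wildtype differed by -0.37 to 0.65 over the 41 genes.

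**Figure D3:**
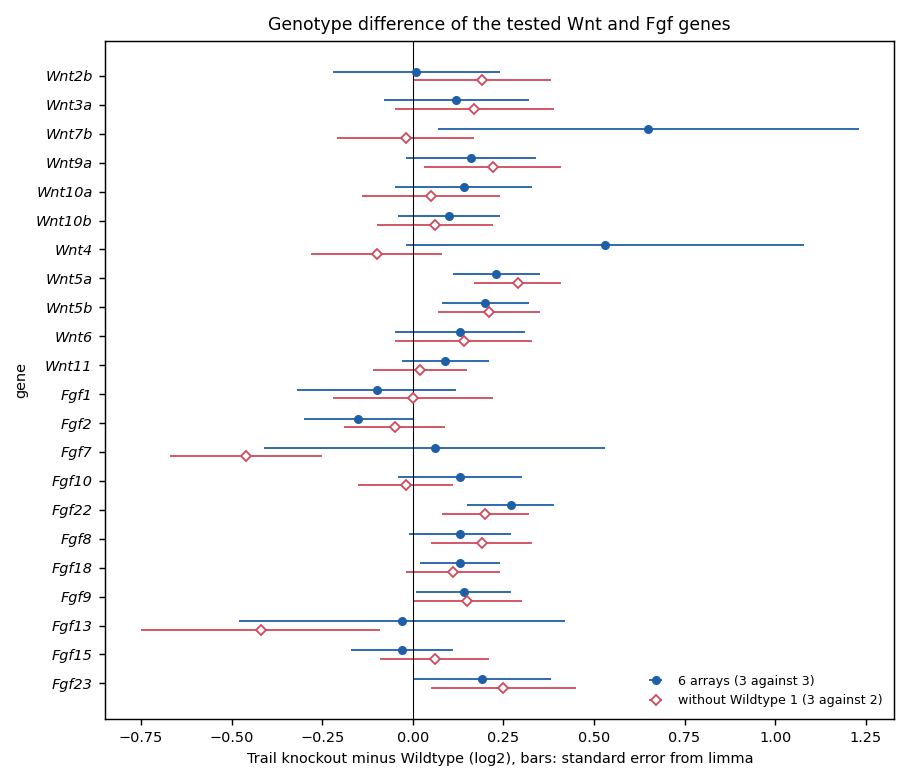
Difference of Trail knockout minus Wildtype (log2, horizontal axis) for the 22 ligand genes that passed the filter, with standard errors from limma, for all arrays (blue, 3 against 3) and without Wildtype 1 (red, 3 against 2). The differences of Wnt7b (0.65) and Wnt4 (0.53) fall to -0.02 and -0.10 without Wildtype 1, and none of the 22 passed the test in either run.

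Wnt7b and Wnt4 had the largest differences, and both rested on Wildtype 1. The mean of Wnt7b was 7.69 ± 0.27 (SD, n = 3) in the knockout and 7.04 ± 1.16 (SD, n = 3) in the Wildtype, a difference of 0.65 (95% interval -0.78 to 2.08), which became -0.02 without Wildtype 1. Wnt4 had 8.21 ± 0.25 (SD, n = 3) and 7.68 ± 1.10 (SD, n = 3), a difference of 0.53 (95% interval -0.82 to 1.89), and -0.10 without Wildtype 1. Fgf7 differed by 0.06 (95% interval -1.11 to 1.23), and without Wildtype 1 by -0.46 (SE 0.21, limma adjusted p = 0.997), where all 3 knockout arrays lay below both Wildtype arrays. For these 3 genes the groups overlapped on the 6 arrays.

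The knockout arrays lay above all Wildtype arrays for Wnt5a, Wnt5b and Fgf22, which is 3 of 41 genes against 2.81% of all genes, and below them for 0 of 41 against 3.5%. Wnt5a had 7.35, 7.36 and 7.28 on the knockout arrays and 7.23, 7.17 and 6.92 on the Wildtype arrays, a difference of 0.23 (SE 0.12, 95% interval -0.07 to 0.52). Its close paralog Wnt5b had 6.28, 6.27 and 6.25 and then 6.08, 5.88 and 6.23, a difference of 0.20 (SE 0.12, 95% interval -0.10 to 0.50), with the third Wildtype array just below the knockout arrays. Fgf22, a ligand of the Fgf7 subfamily known for synapse formation, had 6.86, 6.67 and 6.62 and then 6.30, 6.53 and 6.49, a difference of 0.27 (SE 0.12, 95% interval -0.02 to 0.57). Each had a limma adjusted p of 0.921. Without Wildtype 1 the 3 differences were 0.29, 0.21 and 0.20, and Fgf16 and Fgf21 joined them with knockout arrays above (5 genes against 7.11% of all genes), whereas Fgf7 lay below (1 gene against 6.7%).

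The remaining ligands had differences of -0.37 to 0.26, some of them at low signal, and none passed the threshold. Fgf8, a ligand of embryonic signalling centres, had 7.40, 7.13 and 7.0 on the knockout arrays and 7.15, 6.97 and 7.01 on the Wildtype arrays, a difference of 0.13 (SE 0.14). Fgf2 differed by -0.15 (SE 0.15) and Fgf1 by -0.10 (SE 0.22). Fgf4, a growth factor of the early embryo, had 6.10, 5.91 and 5.83 and then 5.69, 5.56 and 5.89. Wnt8b, a Wnt of the embryonic forebrain, had 4.43, 4.29 and 4.25 and then 3.87, 3.94 and 4.37. In both genes the knockout arrays all lay above Wildtype 1 and 2 and overlapped with Wildtype 3. In a run without the filter, the differences were 0.23 (SE 0.14) for Fgf4, 0.26 (SE 0.15) for Wnt8b, -0.07 (SE 0.14) for Wnt16, -0.08 (SE 0.15) for Fgf11, -0.20 (SE 0.38) for Fgf14 and -0.37 (SE 0.22) for Fgf12, with limma adjusted p between 0.951 and 0.958. The last 4 of these genes were highest on Wildtype 1. The other 26 ligand genes, Fgf13 among them, had differences of -0.03 to 0.22.

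The sign of these small differences was uneven, and its count changed most when Trail knockout 1 was left out. The knockout mean was higher for 31 of 41 genes (75.6%, against 49.8% of all genes), for 17 of 19 Wnt genes and for 14 of 22 Fgf genes, with a median difference of 0.11 against 0.00 for all genes. Trail knockout 1, the array with the highest lung list sum, gave the highest of the 6 values for 27 of 41 ligand genes (65.9%, against 23.6% of all genes) and the lowest for 0, and Wildtype 2 gave the lowest for 18 (43.9%, against 21.6%). Without Trail knockout 1, the knockout mean was higher for 22 of 41 (53.7%, against 42.7%), with a median of 0.01, and for 10 of 19 Wnt genes. Trail knockout 1 also had the highest median over annotated probe sets, 6.47 against 6.34 to 6.43 on the other arrays. The part of the lung list signal or of other tissue content in these counts was not tested. Without Wildtype 1 the knockout mean was higher for 33 of 41 (80.5%, against 53.1%), and without Wildtype 2 for 27 (65.9%, against 46.7%). It was higher for 36 (87.8%, against 51.7%) without Trail knockout 2 and for 33 (80.5%, against 52.9%) without Trail knockout 3. It was higher for 32 (78.0%, against 50.6%) without Wildtype 3. Without both Wildtype 1 and Trail knockout 1 it was higher for 22 of 41 (53.7%, against 45.6%). Among genes that failed the filter, Trail knockout 1 was highest for 40.8%, and among the 19 ligand genes that failed it for 13 (68.4%). After quantile normalization the counts were 28 of 41 higher in the knockout, against 45.1% of all genes, and 23 of 41 highest on Trail knockout 1, against 15.6%. After median centring 30 of 41 were higher, against 41.7%.

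**Figure D4:**
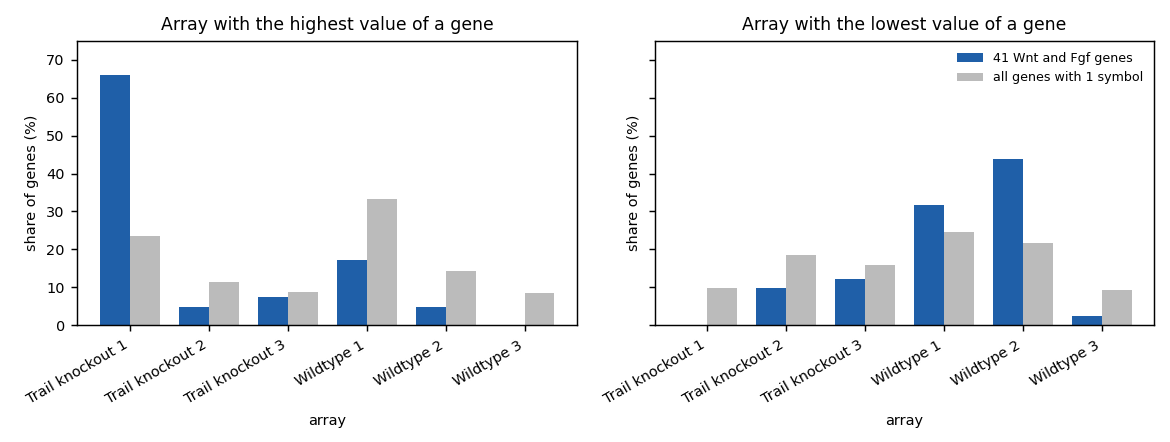
Share of genes (%) whose highest (left) or lowest (right) of 6 values fell on each array, for the 41 Wnt and Fgf genes (blue) and for all 19938 genes (grey). Trail knockout 1 held the highest value for 65.9% of the ligand genes against 23.6% of all genes, and Wildtype 2 the lowest for 43.9% against 21.6%.

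The genes that send, receive and report these signals were examined from 10 lists with 123 genes on the array. None of the 102 that passed the filter had a limma adjusted p under 0.05 between genotypes or an unadjusted p under 0.05, and the knockout mean was higher for 57 and lower for 45. Over all 12038 genes that passed the filter, it was higher for 5048 and lower for 6990, with a median difference of -0.04. The counts by direction in each list below are to be read beside these. On Wildtype 1, 9 of the 123 were over 2-fold above every other array (7.32%, against 4.73% of all genes) and 9 over 2-fold below (7.32%, against 4.74%). Members of the lists that stood apart on that array were thus equal in number in both directions.

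The Fgf receptors showed the widest split. Fgfr2 and Fgfr3, receptors prominent in epithelia, had 6.59 and 6.22 on Wildtype 1, 3.30-fold and 2.60-fold below the lowest other array, whereas Fgfr1, the main receptor of mesenchymal cells, had 8.50 there and 8.23 to 8.35 elsewhere. Klb, the co-receptor through which Fgf21 acts on fat, had 8.86 on Wildtype 1 and 6.17, 5.82 and 4.94 on the knockout arrays and 4.77 and 5.23 on the other Wildtype arrays. It was 6.47-fold above the highest of them, while Fgf21 itself stayed within their range. Between genotypes the list had 3 tested genes higher and 3 lower in the knockout, with a median of 0.08, and Fgfr4 (5.59 on Wildtype 1, 5.87 and 5.88 on the other Wildtype arrays, 5.96 to 6.09 on the knockout arrays) differed by 0.23 (SE 0.12).

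Among Fgf binding and heparan sulfate genes, Wildtype 1 lay over 2-fold below the other arrays for 3 of 13 and above them for 1. Over all genes the shares were 4.74% and 4.73%. Fgfbp1, which releases Fgf from matrix, had 4.42 there and 7.35 to 7.84 elsewhere, the syndecan gene Sdc1 6.55 against 8.80 to 9.24, and the glypican gene Gpc1 6.62 against 7.93 to 8.38. Ext1, an enzyme that builds heparan sulfate chains, had 9.10 against 7.83 to 7.95. Sdc3 and Sdc4 had the lowest p of this list between genotypes, with differences of -0.23 (SE 0.16) and 0.26 (SE 0.18). Of the 12 tested, 7 were higher and 5 lower in the knockout (median 0.03).

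Genes induced by Fgf and ERK signalling had 3 of 20 members over 2-fold higher on Wildtype 1 than on any other array and 0 lower. Over all genes the shares were 4.73% and 4.74%. The phosphatase genes Dusp4 and Dusp6 had 8.97 against 5.89 to 6.82 and 9.19 against 7.79 to 8.10, and the immediate early gene Egr1, which many stimuli induce, had 8.46 against 6.20 to 6.49. Spry1 and Spry2 were not among them, and Spry4 differed by -0.28 (SE 0.17) between genotypes. Dusp6 differed by -0.46 (SE 0.35), and by -0.07 without Wildtype 1. Of 15 tested genes, 8 were higher and 7 lower in the knockout (median 0.06). Among 8 adaptors 0 were over 2-fold apart on Wildtype 1, and 2 were higher and 6 lower in the knockout, with Gab1 at 0.26 (SE 0.31) and Shc1 at -0.11 (SE 0.15).

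**Figure D5:**
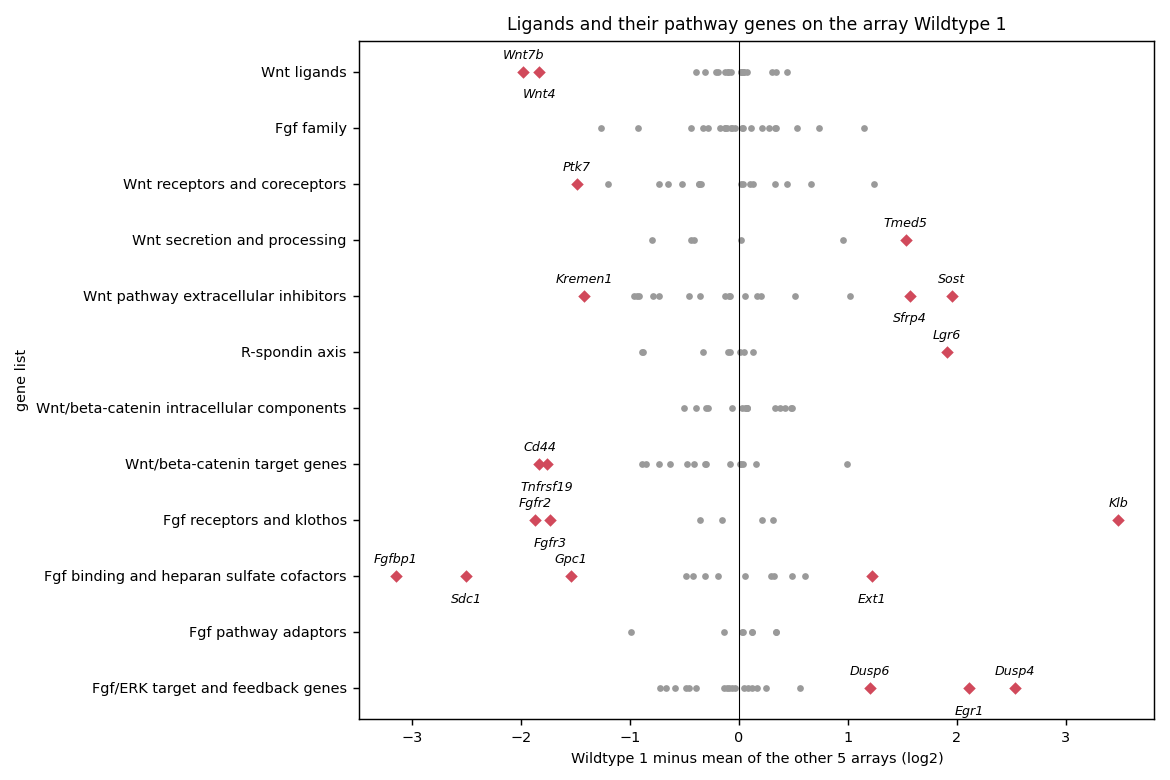
Signal on Wildtype 1 minus the mean of the other 5 arrays (log2, horizontal axis) for the Wnt and Fgf genes and for each pathway list, with one point per gene. Named red diamonds are genes over 2-fold above or below every other array, from Fgfbp1 (4.42 on Wildtype 1) on the left to Klb (8.86) on the right.

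On the Wnt side, Wildtype 1 stood over 2-fold below the rest for 1 of 16 receptor genes and above for 0. This was Ptk7, a co-receptor of polarity signalling, with 5.68 against 7.04 to 7.41. Over all genes the shares were 4.74% below and 4.73% above. Fzd6 had 7.61 against 8.54 to 8.98, and Fzd4, the endothelial Frizzled receptor for norrin, 9.46 against 7.95 to 8.73, both within 2-fold of the nearest array. The endothelial list sum was likewise highest on Wildtype 1, and its part in the Fzd4 value was not tested. Between genotypes 11 receptor genes were higher and 5 lower in the knockout, with a median of 0.13 that became 0.07 without Wildtype 1. Fzd10 was at 0.40 (SE 0.20) and Ror2 at 0.38 (SE 0.23), and without Wildtype 1 these were at 0.19 and 0.21. Of 6 secretion genes, Tmed5, a cargo receptor of the secretory path, had 8.45 on Wildtype 1 against 6.60 to 7.25, and the Wnt carrier Wls 8.71, where the others had 9.08 to 9.21. Their differences between genotypes were -0.74 (SE 0.42) and 0.16 (SE 0.16), and 3 of 5 tested genes were higher in the knockout (median 0.08).

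Of 18 extracellular Wnt inhibitors, 2 were over 2-fold higher and 1 lower on Wildtype 1 than elsewhere, against 4.73% and 4.74% of all genes. Sost, the sclerostin gene that blocks Lrp5 and Lrp6, had 8.16 there and 6.08 to 6.50 elsewhere. Sfrp4, a secreted decoy for Wnt, had 9.94 on Wildtype 1, 8.92 and 8.58 on the other Wildtype arrays and 7.76, 7.92 and 8.69 on the knockout arrays. It had the lowest p of its list between genotypes, with a difference of -1.02 (SE 0.43, limma adjusted p = 0.921), and -0.63 without Wildtype 1. Its groups overlapped, since Trail knockout 3 lay above Wildtype 3. Kremen1, a partner of Dkk1, had 6.73 on Wildtype 1 against 8.0 to 8.24. Sfrp5 differed by 0.35 (SE 0.18). In all, 7 of 12 tested inhibitors were higher and 5 lower in the knockout, with a median of 0.21 that became 0.00 without Wildtype 1.

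In the R-spondin axis, which sets how many Wnt receptors stay on the cell surface, Lgr6 had 7.97 on Wildtype 1 against 5.88 to 6.21. It was the 1 gene of 9 over 2-fold apart, against 4.73% of all genes above and 4.74% below. Rspo3 had 6.66, 7.05 and 6.03 on the knockout arrays and 5.62, 6.13 and 6.63 on the Wildtype arrays, a difference of 0.46 (SE 0.35). Of 6 tested genes 5 were higher in the knockout (median 0.15), among them the ubiquitin ligase gene Znrf3 at 0.13 (SE 0.10). Intracellular components such as Ctnnb1 and Apc had 0 of 15 genes over 2-fold apart on Wildtype 1, and 6 were higher and 9 lower in the knockout (median -0.01), with Bcl9 at 0.21 (SE 0.15) and Btrc at -0.23 (SE 0.14). Wildtype 1 was over 2-fold lower for 2 of 16 beta-catenin target genes, against 4.74% of all genes. These target genes were Tnfrsf19, with 6.10 against 7.72 to 8.12, and the adhesion receptor gene Cd44, with 7.63 against 9.12 to 9.65. Axin2, the target used most often to report beta-catenin activity, had 6.17 there and 6.39 to 6.70 elsewhere. Between genotypes 8 of 10 tested targets were higher in the knockout (median 0.18), and the median was 0.03 without Wildtype 1. Znrf3 and Rnf43, both higher, were counted in this list and in the R-spondin axis.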

How the data were processed

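Per the labels' protocols, Trizol was used for RNA extraction, and 6 ug of total RNA gave the biotin-labelled cRNA put on each Affymetrix array (1 colour). The deposited table holds log2 values, 1 column per sample; the log base was read from their range, 1.55 to 13.96. The submitters' processing notes name MAS5 without version or role, and the sources used here do not give the background correction, summary or scaling. No detection calls were used. Low signals carry background, which shrinks differences of dim genes.

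The platform annotation names 23410 of 35399 probe sets, 21789 with 1 symbol and 1621 with several; genes were named only from the former. Trail knockout was compared with Wildtype in limma 3.58.1 (R 4.3.3) with an intensity trend on the annotated probe sets left after dropping the lowest 40% by mean signal, with Benjamini-Hochberg adjustment at 0.05. No scaling was added. The code was tested on simulated data. Genes not passing the filter were fitted without it. Wildtype 1 was set against the other arrays by counts only.

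Values by array are given for ligand genes with a mean of 7 or more, those over 2-fold apart on an array, and the 5 higher and 5 lower with the lowest p. From each pathway list came the 2 genes with the lowest p and up to 4 apart on Wildtype 1; a few others (Fzd4, Fzd6, Fgfr1, Axin2) were named after their values were seen. Members, lists and rules were chosen with earlier results of these data known. Of 129 listed pathway symbols, 123 were found.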

Additional observations from a re-analysis of the deposited data

How the results depend on the processing

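No ligand or pathway gene passed the threshold in any run, and the count over all probe sets was 0 in each run except for Trail knockout 3 against Wildtype 2 and 3, where it was 4; there the lone knockout array is assumed to vary like the others. The lowest limma adjusted p of the 15 ligand genes given by array was 0.767 over 241 results, each for a single gene in a single run. Of these results 223 kept the sign. Runs that changed only the filter, the intensity trend or the moderation, or added the replicate number as a block, kept the same difference by construction. Averaging of probe sets could change only Wnt4, the one ligand gene with a second probe set. Reversed signs concern differences whose intervals include 0. With array weights Fgf7 was at -0.34, Fgf1 at 0.04, Wnt16 at 0.01, Fgf11 at 0.02 and Fgf14 at 0.16. When each array was left out in turn, Wnt4 ranged from -0.10 to 0.92, Wnt7b from -0.02 to 1.07, Fgf7 from -0.46 to 0.35, Fgf1 from -0.26 to 0.11, Wnt16 from -0.14 to 0.04, Fgf11 from -0.16 to 0.03 and Fgf14 from -0.45 to 0.22. Trail knockout 3 against Wildtype 2 and 3 gave -0.17 for Fgf7, 0.08 for Fgf1 and 0.14 for Fgf2.

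Wnt4 and Wnt7b were over 2-fold below every other array on Wildtype 1 after quantile normalization and median centring too. Averaging of probe sets kept Wnt4 there as well, and could not change Wnt7b, which has no second probe set. Wnt7b alone, 1 gene, remained at a 3-fold limit, and Wnt4 alone, 1 gene, with a pseudocount of 64. Fgf14 was the 1 gene above at a 1.5-fold limit, and also without Trail knockout 2, or without Trail knockout 1 and 2, where 4 genes were below (Fgf7 and Fgf13 joined).

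With the replicate number as a block the differences were the same and 0 ligand genes passed (0.53 for Wnt4, 0.65 for Wnt7b; limma adjusted p = 0.972 for both). Deviations of same-numbered arrays from their group means had r of 0.095, -0.231 and 0.198 across probe sets, which are not independent. Of the knockout arrays 1 alone matched its own number best. The unlike tissue content of the arrays enters these deviations, so they cannot decide whether the numbers are pairs. The numbers were not taken as pairs. Counts by direction, runs without several arrays and counts on Wildtype 1 that leave out another array were added after the data had been seen. The number of arrays and the unknown background of dim probe sets limit what could be detected.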
